A study of Rattus norvegicus with 30 samples.

Results

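The elastic fibre genes are 10 rows of the expression table, chosen by gene name: elastin (Eln), fibrillin-1 (Fbn1), 5 members of the fibulin family (Fbln1, Fbln2, Fbln5, Efemp1 and Efemp2) and 3 lysyl oxidases (Lox, Loxl1 and Loxl2). The table held 30562 rows, each of the 10 names matched 1 of them, and all 10 were among the 16171 genes with enough counts to test. RNA was sequenced from rat lung cells that had been sorted with microbeads against CD31, a surface protein of endothelium, 3 weeks after surgery. The surgery was either a Glenn procedure, in which venous blood is joined to a lung artery without passing through the heart, or a sham operation. Each arm was split by diet, and all rats were labelled wild-type. The 6 groups of 5 libraries were therefore sham surgery with a vitamin A control diet, a vitamin A deficient diet or a vitamin A excess diet, and Glenn surgery with each of the same 3 diets. Rat strain, age and the number of animals behind a library are not given in the sources used here. Nothing in them says that libraries of a group came from separate animals, so p-values measure the spread between these libraries.

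Elastic fibres give arteries and alveolar walls their recoil. Tropoelastin, the soluble product of Eln, is laid onto a scaffold of fibrillin microfibrils, is carried and aligned there by fibulins, and is made insoluble when lysyl oxidases oxidise its lysines so that they cross-link. Smooth muscle cells, fibroblasts and mesothelium make much of this matrix in lung, and arterial endothelium also contributes.

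Totals ran from 22 M to 77.6 M estimated counts per library, with a median of 40 M. Levels below are CPM, estimated counts per M of library total after scaling between libraries. They are not divided by transcript length, so levels of different genes were not compared. Endothelial identity was present in every library: Pecam1, which encodes CD31, stood at 1213 ± 233 CPM in sham and 1099 ± 146 CPM in Glenn libraries (SD, n = 15 each), and no endothelial marker was at 0. Markers of other lung cells were also present, including Sftpc of type 2 alveolar cells at 25746 ± 4648 CPM in sham and 19774 ± 5378 CPM in Glenn libraries. The samples were thus endothelium with other cells, and in bulk RNA fewer cells of a type and less RNA per cell cannot be told apart. Library names fell into 2 number ranges, 22 libraries in series A and 8 in series B, and the series was a term in the fit. The histocompatibility gene RT1-CE16 also split the libraries, into 17 at 21.9 to 44.4 CPM and 13 at 407 to 949 CPM, with all 8 of series B among the latter. All sham excess libraries were RT1-CE16-low, as were 2 of 5 sham control libraries. By the level of the Y-linked gene Ddx3y (threshold 10 CPM) every group held both male and female libraries. Sex was not a term in the main fit and was added in an alternative.

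RefSeq promoter sequences (rat build GRCr8, while the deposited counts were made on mRatBN7.2) were found for 6 of the 10 genes: Fbn1, Fbln2, Fbln5, Efemp1, Efemp2 and Loxl1. Below are the 250 bases before the annotated start of 3 of them, each 5′ to 3′ on the gene's own strand. Fbln5 is shown because it had the largest change with surgery, Loxl1 because it tracked fibroblast markers most closely, and Efemp1 because it did not pass the test. Capitals mark matches, on either strand, to CAGAC, the SMAD box through which TGF-beta and BMP signals can act, and to CANNTG, the E-box of basic helix-loop-helix factors.
Fbln5, chr6:126742707-126742956, minus strand: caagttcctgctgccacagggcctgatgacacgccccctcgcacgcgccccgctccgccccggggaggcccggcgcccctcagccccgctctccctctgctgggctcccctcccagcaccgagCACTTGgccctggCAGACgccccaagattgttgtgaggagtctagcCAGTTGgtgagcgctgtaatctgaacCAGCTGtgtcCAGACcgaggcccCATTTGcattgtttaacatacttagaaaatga
Loxl1, chr8:67612225-67612474, minus strand: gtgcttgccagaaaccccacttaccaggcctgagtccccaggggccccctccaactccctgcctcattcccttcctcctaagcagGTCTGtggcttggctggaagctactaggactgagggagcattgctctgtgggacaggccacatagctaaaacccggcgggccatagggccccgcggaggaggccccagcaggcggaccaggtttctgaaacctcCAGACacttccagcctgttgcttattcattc
Efemp1, chr14:106811614-106811863, plus strand: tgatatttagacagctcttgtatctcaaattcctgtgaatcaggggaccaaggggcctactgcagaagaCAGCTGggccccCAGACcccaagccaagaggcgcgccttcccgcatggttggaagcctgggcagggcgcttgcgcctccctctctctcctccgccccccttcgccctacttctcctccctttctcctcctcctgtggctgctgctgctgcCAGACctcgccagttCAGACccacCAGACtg
The Fbln5 window held 2 SMAD boxes and 4 E-boxes, the Loxl1 window 2 SMAD boxes and 0 E-boxes, and the Efemp1 window 4 SMAD boxes and 1 E-box, with no overlap between neighbouring matches. Both motifs are short and common: 42.9% of 33469 RefSeq promoter windows of the same length held CAGAC and 65.5% held CANNTG. The CArG box of serum response factor, present in 1.5% of windows, matched none of the 6, and the muscle MCAT element CATTCC, present in 12.1%, matched once, in Loxl1. A match says only that these letters are there.

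After Glenn surgery, transcripts of elastin, of fibrillin-1, of 3 of the 5 fibulins (Fbln1, Fbln2 and Fbln5) and of the cross-linking enzymes Lox and Loxl1 were more abundant than after sham surgery. Averaged over the 3 diets, 7 of the 10 genes were higher and 0 lower at an adjusted p under 0.05 (edgeR quasi-likelihood test, Benjamini-Hochberg over all genes), where 23.4% of all tested genes were higher and 24.7% lower. Their median log2 change was 0.78, against -0.01 over all tested genes. In log2 units, the 7 ran from 0.59 for Loxl1 to 1.62 for Fbln5. Efemp1, Efemp2 and Loxl2 did not pass the test. For Fbn1 and Fbln5 every Glenn library lay above every sham library, which held for 3.1% of tested genes. With series A alone, and with each of the 30 libraries left out in turn, the 7 stayed higher. Markers of smooth muscle and pericytes (mural cells) and of fibroblasts rose with surgery as well. Their values are given below, and their part in these changes was not tested.

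**Figure D1:**
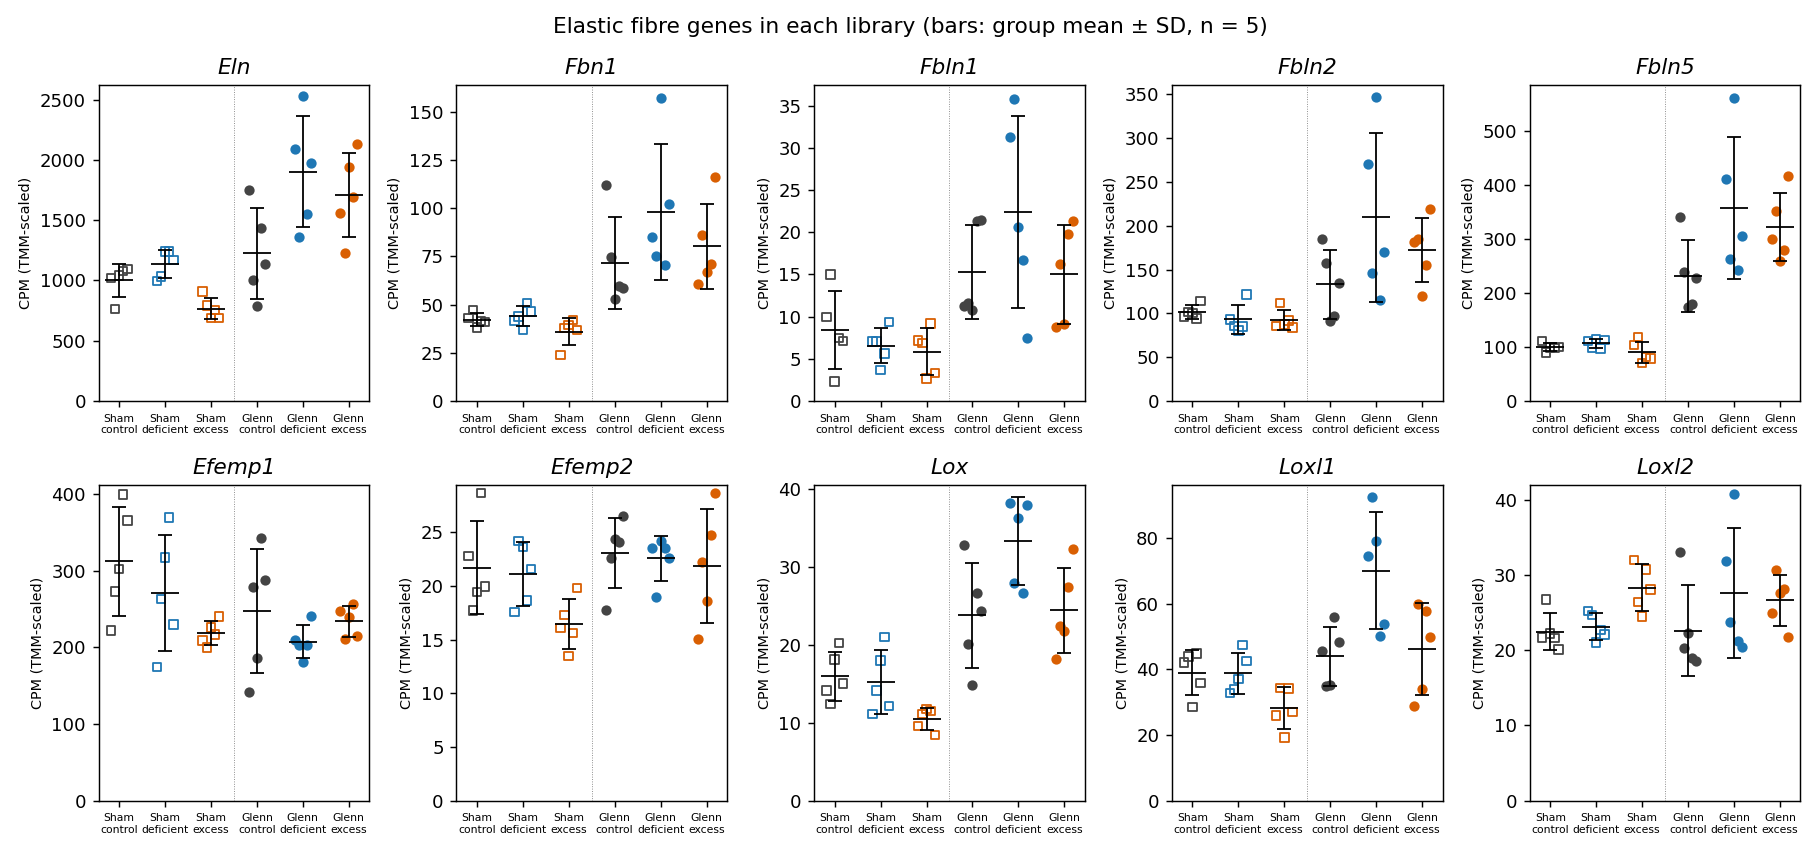
Level of each elastic fibre gene in each of the 30 libraries. The vertical axis is CPM from 0, open squares are sham libraries, filled circles are Glenn libraries, colours are the diets, and bars are the group mean ± SD (n = 5). The Fbln5 and Fbn1 panels show every Glenn library above every sham library, while the Efemp1 and Loxl2 panels show overlapping ranges.

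Elastin itself (Eln, ENSRNOG00000001469) is the elastic core of the fibre. On the control diet the sham libraries held 1022, 762, 1039, 1078 and 1095 CPM and the Glenn libraries 1750, 1006, 786, 1437 and 1139 CPM. These ranges overlapped, and 2 of the 5 Glenn libraries lay below the median sham library. On the deficient diet the sham libraries held 997, 1031, 1241, 1240 and 1168 CPM and the Glenn libraries 2094, 1360, 2530, 1552 and 1978 CPM. On the excess diet sham libraries held 907, 793, 687, 756 and 689 CPM and Glenn libraries 1562, 1227, 1941, 1696 and 2133 CPM. Neither of these pairs of groups overlapped, and the sham excess group was the lowest of the 6. The log2 change was 0.29 (SE 0.17, adjusted p = 0.232, edgeR) on the control diet, 0.80 (SE 0.18, adjusted p = 0.00108) on the deficient diet and 1.04 (SE 0.19, adjusted p = 0.000214) on the excess diet. Averaged over diets Eln was 1.63-fold higher after Glenn surgery (log2 change 0.71, SE 0.10, adjusted p = 1.21e-06).

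Fbn1 (ENSRNOG00000007302) encodes fibrillin-1, the main protein of the microfibrils onto which elastin is laid. Its sham libraries held 43.0, 47.3, 38.1, 41.5 and 40.8 CPM on the control diet, 41.6, 43.7, 36.8, 50.7 and 46.3 CPM on the deficient diet, and 23.7, 37.7, 39.4, 41.9 and 36.9 CPM on the excess diet. Glenn libraries held 112, 74.5, 53.1, 59.8 and 58.8 CPM on the control diet, 84.9, 75.1, 157, 70.5 and 102 CPM on the deficient diet, and 60.5, 86.3, 67.1, 71.1 and 116 CPM on the excess diet. Every diet showed a rise without overlap, and within each Glenn group 1 library (112, 157 and 116 CPM) stood above the rest. Fbn1 was 2.04-fold higher averaged over diets (log2 change 1.03, SE 0.13, adjusted p = 1.30e-07, edgeR). By diet, its log2 change was 0.76 (SE 0.21) on control, 1.16 (SE 0.22) on deficient and 1.16 (SE 0.24) on excess diet, with adjusted p of 0.00895, 0.000221 and 0.000707.

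Fbln5 (ENSRNOG00000050539), whose product binds both tropoelastin and cell-surface integrins and is needed for fibre assembly in mice, changed most. Sham libraries held 111, 89.8, 99.3, 98.4 and 100 CPM on the control diet, 111, 98.9, 115, 97.2 and 113 CPM on the deficient diet, and 103, 118, 70.7, 80.9 and 78.7 CPM on the excess diet. After Glenn surgery they were 340, 240, 174, 180 and 228 CPM, then 412, 264, 561, 243 and 306 CPM, and 301, 353, 260, 280 and 418 CPM on the same diets. The lowest Glenn library, at 174 CPM, stood above the highest sham library, at 118 CPM. In CPM, Glenn libraries also spread more widely: the SD within groups was 7.56 to 19.6 CPM after sham and 63.6 to 131 CPM after Glenn surgery. Relative to the group mean the spread was wider on the control and deficient diets and not on the excess diet. There the SD was 19.6 CPM at a mean of 90.3 CPM after sham and 63.6 CPM at a mean of 322 CPM after Glenn surgery. Averaged over diets the fold was 3.07 (log2 change 1.62, SE 0.11, adjusted p = 2.97e-12, edgeR), at the 97.3rd percentile of changes over all tested genes. Fbln5 was the only member called on each diet in every alternative and with each library left out, with log2 changes between 1.04 and 2.07.

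Fbln1 (ENSRNOG00000014137) and Fbln2 (ENSRNOG00000007338) encode fibulins that bind elastic fibres and basement membranes. Fbln1 was scarce and variable: sham libraries ran from 2.29 to 14.98 CPM (median 7.06, n = 15) and Glenn libraries from 7.51 to 35.8 CPM (median 16.7, n = 15). The groups overlapped on each diet. Its fold averaged over diets was 2.58 (log2 change 1.37), with the largest SE of the list (0.25, adjusted p = 5.67e-05, edgeR). For Fbln2 sham libraries ran from 80.2 to 122 CPM (median 93.2) and Glenn libraries from 91.7 to 347 CPM (median 157). It was 1.80-fold higher (log2 change 0.85, SE 0.13, adjusted p = 3.57e-06, edgeR), without overlap on the excess diet, where the sham libraries ended at 112 CPM and the Glenn libraries began at 120 CPM.

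The 2 fibulins of the EFEMP type behaved otherwise. Efemp1 (ENSRNOG00000003553), which encodes fibulin-3, was at 267 ± 68.8 CPM in sham and 229 ± 49.3 CPM in Glenn libraries (SD, n = 15 each). Its log2 change averaged over diets was -0.23 (SE 0.11, adjusted p = 0.0723, edgeR), and the ranges, 175 to 399 and 142 to 342 CPM, overlapped over most of their length. Efemp2 (ENSRNOG00000020587) encodes fibulin-4, which brings lysyl oxidase to elastin and without which mice form no intact elastic fibres. It was at 19.8 ± 3.90 CPM in sham and 22.5 ± 3.54 CPM in Glenn libraries, with a log2 change of 0.18 (SE 0.08, adjusted p = 0.0883, edgeR). Efemp1 passed as lower without any 1 of sham control replicate 1, sham deficient replicates 1 and 5, or Glenn control replicate 4 (adjusted p from 0.0313 to 0.0499), and when an RT1-CE16 term replaced the series term (adjusted p = 0.0342). Efemp2 passed as higher without any 1 of sham control replicate 4, Glenn control replicate 1 or Glenn excess replicate 1 (adjusted p from 0.0253 to 0.0459), and with limma voom (adjusted p = 0.0201). On the excess diet Efemp2 passed as higher without the series term (adjusted p = 0.0359) and without Glenn excess replicate 1 (adjusted p = 0.0430).

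Among the lysyl oxidases, which are copper enzymes, Lox and Loxl1 rose and Loxl2 did not pass the test. Lox (ENSRNOG00000014426), the founding enzyme, held 14.1, 12.4, 18.1, 20.2 and 14.99 CPM in the sham control group and 32.8, 20.04, 14.9, 26.7 and 24.3 CPM in the Glenn control group, with 2 Glenn libraries within the sham range. Sham deficient libraries held 11.1, 14.1, 17.95, 21.0 and 12.1 CPM and Glenn deficient libraries 38.1, 27.9, 36.2, 26.6 and 37.9 CPM. In the excess groups sham libraries held 9.56, 11.1, 11.8, 11.5 and 8.42 CPM and Glenn libraries 18.2, 22.4, 21.7, 27.3 and 32.3 CPM. The deficient and excess groups did not overlap between operations. Averaged over diets Lox was 1.92-fold higher (log2 change 0.94, SE 0.11, adjusted p = 3.57e-08, edgeR).

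Loxl1 (ENSRNOG00000008680) encodes the oxidase that is drawn to elastin by fibulin-5. Its sham libraries ran from 19.2 to 47.4 CPM (median 34.4, n = 15) and its Glenn libraries from 29.0 to 92.6 CPM (median 50.2, n = 15), 1.5-fold higher (log2 change 0.59, SE 0.12, adjusted p = 0.000191, edgeR). Only on the deficient diet did its groups not overlap: sham libraries held 32.9, 33.8, 37.1, 47.4 and 42.6 CPM and Glenn libraries 74.5, 92.6, 79.2, 50.2 and 53.9 CPM. Loxl2 (ENSRNOG00000016758), an oxidase that acts mainly on collagen IV of basement membranes, was at 24.6 ± 3.57 CPM in sham and 25.6 ± 6.32 CPM in Glenn libraries, with a log2 change of 0.09 (SE 0.08, adjusted p = 0.388, edgeR). Its sign on the control and excess diets turned under some alternatives, so no direction is given for it there.

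Split by diet, fewer members passed on the control diet than on the other two. On the control diet 3 of 10 were higher (Fbn1, Fbln5 and Lox), where 11.8% of tested genes were higher. On the deficient diet 7 of 10 were higher against 13.7% of tested genes, and on the excess diet 7 of 10 against 11.6%; these were the 7 called in the average. No member was lower on any diet, where 13.1%, 13.7% and 10.4% of tested genes were lower. Members whose Glenn and sham libraries did not overlap numbered 2 on the control diet (Fbn1 and Fbln5, where 7.78% of tested genes were so), 5 on the deficient diet (Eln, Fbn1, Fbln5, Lox and Loxl1, where 10% were so) and 5 on the excess diet (Eln, Fbn1, Fbln2, Fbln5 and Lox, where 8.59% were so). The median log2 change over the 10 was 0.34 on control, 0.95 on deficient and 1.05 on excess diet. The control diet count rested partly on 1 library: without Glenn control replicate 1 only Fbln5 was called, with Fbn1 at an adjusted p of 0.0507 and Lox at 0.0973. Lox also missed without sham control replicate 1 (adjusted p = 0.0531) and without sham control replicate 2 (adjusted p = 0.0701). With limma voom (log2 change 0.46, adjusted p = 0.0638) and with only the groups compared (edgeR, adjusted p = 0.0504) Lox missed too, which left 2 members called. With RT1-CE16-low libraries alone (2 sham and 3 Glenn on the control diet) Fbln5 alone was called there.

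**Figure D2:**
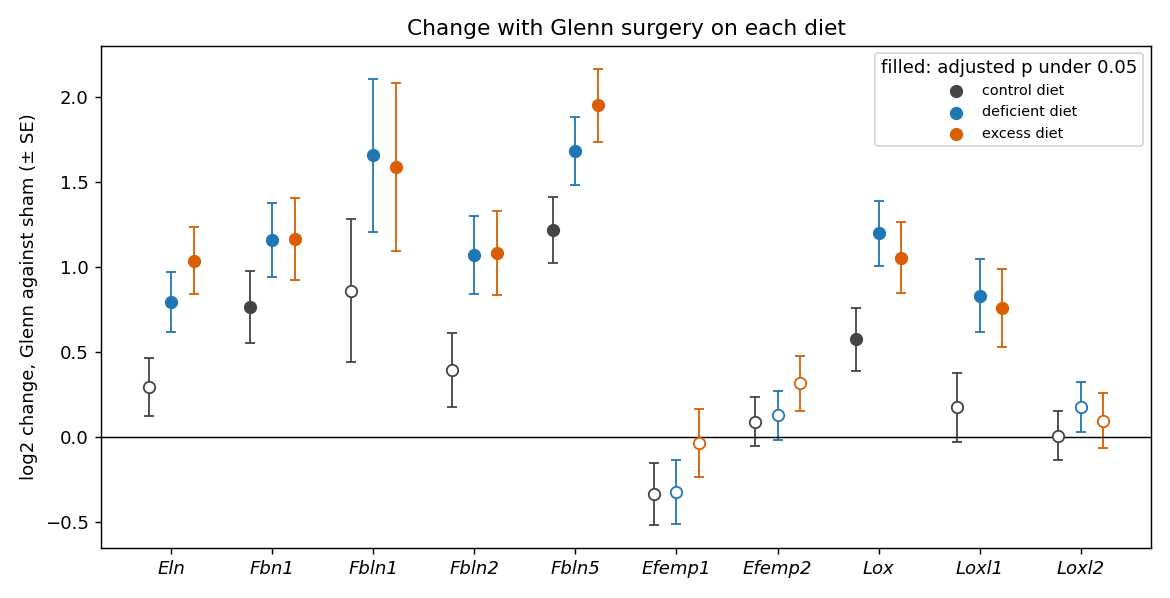
Log2 change with Glenn surgery for each member on each diet. The vertical axis is the edgeR log2 change of Glenn against sham (bars are SE), colours are the diets, and filled points have an adjusted p under 0.05. On the control diet 3 points are filled and on each of the other diets 7. For the 7 called on the deficient and excess diets the control diet point is the lowest of the 3.

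Within each Glenn group the same libraries tended to be extreme for the 7 genes that rose. In the control group, replicate 1 was the highest of 5 for 5 of the 7 genes and replicate 3 the lowest for 6. In the deficient group, replicate 4 was the lowest for 5 of the 7, and in the excess group replicate 5 was the highest for 6. On the excess diet the calls of Fbln1 and Loxl1 depended most on the libraries used. Sham excess libraries were all of series A, as were only 2 of 5 Glenn excess libraries, and with series A alone the adjusted p was 0.171 for Fbln1 (log2 change 1.10) and 0.0776 for Loxl1 (log2 change 0.67). RT1-CE16 level was split in the same way: all sham excess libraries were low, and Glenn excess replicates 3 to 5, those of series B, were high. Eln stayed called on the excess diet under every alternative and with each library left out, with log2 changes from 0.87 to 1.18. Fbln1 also missed without sham excess replicate 3 (adjusted p = 0.0517) or 5 (0.0513), and Loxl1 without sham excess replicate 3 (0.0513) or Glenn excess replicate 2 (0.147).

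The difference between diets in the size of the surgery effect was tested directly. In edgeR no member passed for the interaction of surgery with diet, which 0.00618% of tested genes did. The smallest adjusted p was 0.765, for Eln. Eln (unadjusted p = 0.0193, edgeR) and Fbln5 (unadjusted p = 0.0441, edgeR) were under 0.05 before adjustment, as were 5.72% of tested genes, and no member passed with DESeq2 or limma voom either. The surgery effect on Eln was larger by 0.75 in log2 units for the excess diet than for the control diet (SE 0.26, unadjusted p = 0.00783, adjusted p = 0.408). For Fbln5 the same difference was 0.73 (SE 0.29, unadjusted p = 0.0169, adjusted p = 0.506). On the excess diet RT1-CE16 level was unequal between operations, and its part in these differences was not tested. For Lox the surgery effect was larger by 0.63 for the deficient than for the control diet (SE 0.27, unadjusted p = 0.0260, adjusted p = 0.996). No difference between diets was therefore established for any member, although the 7 were called on both altered diets and 4 of them were not on the control diet.

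Diet alone moved no member past an adjusted p of 0.05 in any of the 6 comparisons of diets within an operation (edgeR). At the same threshold 0.241% of tested genes passed for excess against control diet, 0.0124% for excess against deficient and 0% for deficient against control after sham surgery. After Glenn surgery these shares were 1.47%, 0% and 0.00618%. DESeq2 also called no member, and limma voom called Loxl2 in excess against control diet after Glenn surgery. At an unadjusted p under 0.05, 6 of 10 members differed between excess and control diet after sham surgery (11.1% of tested genes did). Eln, Efemp1, Efemp2, Lox and Loxl1 were lower on the excess diet, by -0.38, -0.52, -0.40, -0.61 and -0.47 in log2 units, and Loxl2 was higher by 0.33. Lox was the only member without overlap, as 1.07% of tested genes were in that direction: the highest sham excess library, at 11.8 CPM, lay below the lowest sham control library, at 12.4 CPM. Diet was partly confounded with RT1-CE16 level here: all sham excess libraries were low and sham control replicates 3 to 5 were high. The series term did not cover this split, because all libraries of both groups were of series A. Its part in these differences was not tested. The sham excess group had the lowest mean of the 6 groups for 8 of the 10 genes, the exceptions being Efemp1, for which Glenn deficient was lower, and Loxl2, for which sham excess was the highest.

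After Glenn surgery the deficient diet gave the highest group mean for each of the 7 genes that rose. Against the Glenn control group, 6 members had an unadjusted p under 0.05, all higher: Eln, Fbln2, Fbln5, Lox, Loxl1 and Loxl2, where 9.88% of tested genes had such a p. The largest was Fbln2, with a log2 difference of 0.74 (SE 0.23, unadjusted p = 0.0028, adjusted p = 0.273, edgeR). For excess against control diet after Glenn surgery 3 members did (Fbln2, Fbln5 and Loxl2, against 13.9% of tested genes), for excess against deficient diet 2 after each operation (against 5.28% after sham and 5.18% after Glenn surgery), and for deficient against control diet after sham surgery 0 (against 5.22%). Removing Glenn control replicate 1 brought Fbln5 past an adjusted p of 0.05 in deficient against control diet after Glenn surgery, and Fbln5 and Loxl2 in excess against control diet. These diet comparisons share control libraries with each other and with the surgery comparisons. In the order of group means, neighbouring groups overlapped for every member except at the step from sham deficient to Glenn control, where the Fbn1 and Fbln5 ranges were separate.

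Markers of smooth muscle and pericytes rose with surgery on every diet in the same libraries, those of fibroblasts on the deficient diet, and those of mesothelium on none. Marker scores were means of log2(CPM + 1) over lists that held no elastic fibre gene, compared by an exact permutation test of 5 against 5 libraries (two-sided, all assignments, smallest possible p = 0.00794) with Benjamini-Hochberg adjustment over 30 tests. The mural score was higher after Glenn surgery by 1.06 on the control diet, 1.46 on the deficient diet and 1.53 on the excess diet (adjusted p = 0.0183 for each, no overlap). All 11 mural genes tested rose averaged over diets (edgeR), and their summed level ran from 181 to 375 CPM in sham and from 552 to 1845 CPM in Glenn libraries. The fibroblast score was higher by 0.37 (adjusted p = 0.143), 1.08 (adjusted p = 0.0183) and 0.80 (adjusted p = 0.0529) on the control, deficient and excess diets in the same exact test. Of 10 fibroblast genes 9 rose averaged over diets, with a summed level of 1276 to 3264 CPM in sham and 1811 to 4706 CPM in Glenn libraries. No mesothelial gene of 5 was called, and the mesothelial score did not pass on any diet. The endothelial score was lower by -0.28, -0.26 and -0.23 (adjusted p = 0.0183, 0.0317 and 0.0317 in the exact test). Of 10 endothelial genes 6 were lower and 3 higher averaged over diets. The arterial score was higher on the deficient and excess diets, by 0.53 and 0.60 (adjusted p = 0.0183 for each, exact test). Of 7 arterial genes 5 were higher and 2 lower averaged over diets. Lymphatic markers were higher on the control, deficient and excess diets, by 0.81, 0.91 and 0.95 (adjusted p = 0.0183 for each, exact test, no overlap), with 5 of 5 genes higher averaged over diets. The type 1 alveolar score was higher on the deficient diet by 0.71 (adjusted p = 0.0183, exact test), with 4 of 5 genes higher and 1 lower averaged over diets. The type 2 alveolar score was lower on the deficient and excess diets, by -0.59 and -0.56 (adjusted p = 0.0183 and 0.0446, exact test). The part of these markers in the rise of the members was not tested. Within series A alone the mural differences were 1.06, 1.65 and 1.26, with too few libraries on the deficient and excess diets for a permutation test to pass. The control diet difference did not pass there either (adjusted p = 0.0794, exact test). Its libraries were the same, and only the tests adjusted with it differed.

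Levels of single members followed these scores within an operation to different degrees. Each of the 10 genes was set against the mural, fibroblast, mesothelial and endothelial score over the 15 sham and, separately, the 15 Glenn libraries, 80 correlations in all, with 100000-resample permutation p-values adjusted over the 80. In this family 11 passed an adjusted p of 0.05 by Pearson's r, and these 11 concerned all members but Fbln2 and Fbln5. Loxl1 followed the fibroblast score after sham surgery (r = 0.84, permutation p = 5e-05, adjusted p = 0.001; rho = 0.83, p = 0.00027, adjusted p = 0.00432) and after Glenn surgery (r = 0.95, rho = 0.96, permutation p = 1e-05 for each, the smallest the resamples can give, adjusted p = 0.0004). Without the 2 libraries farthest from the median score, r was 0.95 and 0.91, and within series A it was 0.94 (12 sham libraries) and 0.96 (10 Glenn libraries). Fbln1 did likewise, with r = 0.81 after sham (permutation p = 0.00027, adjusted p = 0.00432; rho = 0.74, p = 0.00211, adjusted p = 0.0188) and 0.76 after Glenn surgery (permutation p = 0.00103, adjusted p = 0.0134; rho = 0.68, p = 0.00719, adjusted p = 0.0523). Without the 2 farthest libraries these became 0.73 and 0.63, and within series A 0.87 and 0.87.

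The mesothelial score went with Efemp1 and Lox in the sham libraries. For Efemp1, r was 0.91 (permutation p = 1e-05, adjusted p = 0.0004; rho = 0.87, p = 3e-05, adjusted p = 0.0008), 0.85 without the 2 farthest libraries and 0.92 within series A. For Lox, r was 0.88 (permutation p = 3e-05, adjusted p = 0.0008; rho = 0.88, p = 6e-05, adjusted p = 0.0012), 0.79 without the 2 farthest libraries and 0.86 within series A. In the Glenn libraries the same correlations were 0.56 (permutation, adjusted p = 0.117) for Efemp1 and 0.16 (permutation, adjusted p = 0.686) for Lox, and the differences between operations were not tested. Eln gave 0.76 with the mesothelial score after sham (permutation p = 0.00165, adjusted p = 0.0151; rho = 0.79, p = 0.00075, adjusted p = 0.00857), 0.73 without the 2 farthest libraries and 0.68 within series A, and -0.01 after Glenn surgery. The sham excess group had a lower mean mesothelial score (4.74 ± 0.10) than sham control (5.44 ± 0.47) and sham deficient (5.41 ± 0.47; SD, n = 5 each), and the lowest sham means of Eln, Efemp1 and Lox. With each library expressed relative to its group mean, r was 0.58 for Eln, 0.93 for Efemp1 and 0.77 for Lox. RT1-CE16 level split the sham libraries along the same axis. Mesothelial scores were 5.39 to 5.96 in RT1-CE16-high and 4.65 to 5.39 in RT1-CE16-low sham libraries. In the same order Eln was 1039 to 1241 and 687 to 1031 CPM. Efemp1 was 230 to 399 and 175 to 273 CPM, and Lox 12.1 to 21.0 and 8.42 to 14.1 CPM. The checks above did not remove this split, and its part in these correlations was not tested.

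The other 4 correlations that passed by Pearson's r were all over sham libraries. Efemp2 rose with the mural score (r = 0.74, permutation p = 0.0017, adjusted p = 0.0151; rho = 0.92, p = 1e-05, adjusted p = 0.0004), with r = 0.76 without the 2 farthest libraries and 0.72 within series A. Fbn1 rose with the fibroblast score (r = 0.62, permutation p = 0.00508, adjusted p = 0.0406; rho = 0.81, p = 0.00061, adjusted p = 0.00813), with 0.69 and 0.53 in the same checks. Loxl2 fell as the mesothelial score rose (r = -0.76, permutation p = 0.00117, adjusted p = 0.0134; rho = -0.75, p = 0.002, adjusted p = 0.0188), with -0.78 and -0.74, and as the mural score rose (r = -0.66, permutation p = 0.00612, adjusted p = 0.0445; rho = -0.55, p = 0.0372, adjusted p = 0.175), with -0.51 and -0.65. Relative to the group means, r for Loxl2 was -0.51 with the mesothelial and -0.32 with the mural score, and the sham excess group had the highest sham mean of Loxl2 and the lowest of both scores. Loxl2 was at 20.1 to 22.7 CPM in RT1-CE16-high and 21.7 to 32.0 CPM in RT1-CE16-low sham libraries. With a pseudocount of 0.1 in the score, Fbn1 with the fibroblast score (permutation, adjusted p = 0.0823) and Loxl2 with the mural score (permutation, adjusted p = 0.0530) no longer passed. In the Glenn libraries Efemp2 with the mural score gave r = 0.65 (permutation, adjusted p = 0.0663) and rho = 0.72 (permutation, adjusted p = 0.0266). Relative to the group means, this r was 0.53 after sham and 0.71 after Glenn surgery. Series B held 3 sham and 5 Glenn libraries, too few for a value of its own. Fbln5, the gene with the largest change, gave r = 0.18 with the mural score after sham (permutation, adjusted p = 0.662) and 0.61 after Glenn surgery (permutation, adjusted p = 0.0825). The arterial score was not set against any member, so whether Fbln5 or Fbln2 followed it was not tested. In each Glenn group the library with the highest arterial score also held the most Fbln5, and the library with the lowest score the least. In no sham group did both of these hold.

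**Figure D3:**
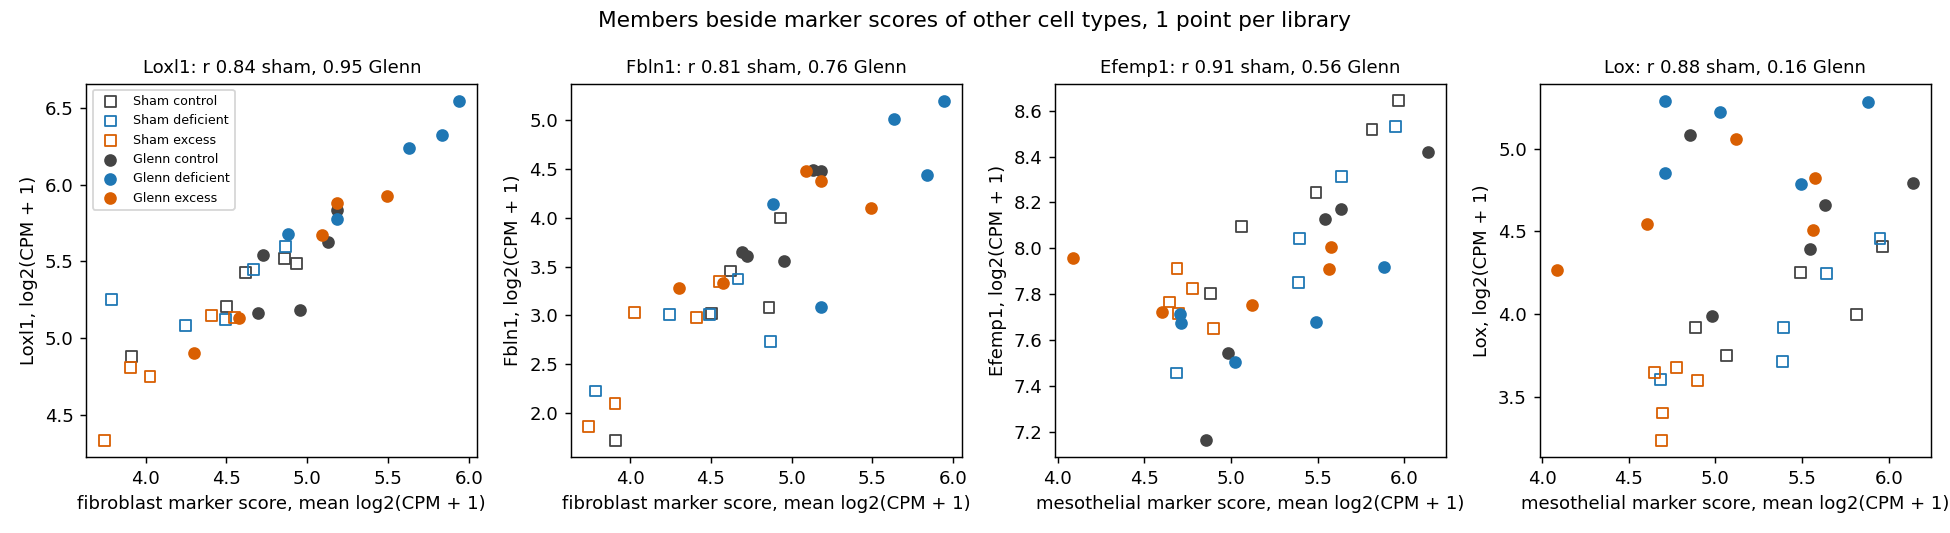
Loxl1, Fbln1, Efemp1 and Lox plotted against a marker score of another cell type, 1 point per library. The horizontal axis is the mean log2(CPM + 1) of the marker list, the vertical axis is log2(CPM + 1) of the gene, open squares are sham and filled circles Glenn libraries, and colours are the diets. Loxl1 and Fbln1 rise along the fibroblast score in both operations (r = 0.84 and 0.95 for Loxl1), while Lox rises along the mesothelial score among sham libraries (r = 0.88) and not visibly among Glenn libraries (r = 0.16).

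Which genes ran most like Eln and Fbln5 from library to library was ranked by the smaller of r over 15 sham and r over 15 Glenn libraries, among 13478 genes whose mean level reached 1 CPM. The 5 genes nearest to Eln were its cross-linking enzyme Lox (0.73), the membrane protease Mmp14 (0.70), the matrix protein Papln (0.69), the mitochondrial carrier Sfxn3 (0.69) and Fbln5 (0.68). All 5 were higher after Glenn surgery, by 0.94, 1.05, 1.26, 0.50 and 1.62 in log2 units (adjusted p of 3.57e-08 or less, edgeR). Nearest to Fbln5 were the sodium-calcium exchanger Slc8a1 (0.69), the elongation factor Tcea1 (0.69), Eln (0.68), Ccdc107 (0.68) and the scavenger receptor Msr1 (0.66). Of these Tcea1 did not pass the surgery test (log2 change 0.06, adjusted p = 0.150, edgeR). These values are descriptions over libraries that share depth and cell mixture.

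Genes that work with the 10 moved in both directions, as did all tested genes, of which 23.4% were higher and 24.7% lower averaged over diets. Of 21 tested genes of the microfibril and its scaffold 11 were higher, 3 lower and 7 not called averaged over diets, with a median log2 change of 0.41 (edgeR). Emilin2, an elastin interface glycoprotein, rose most, from 1.12 ± 0.70 CPM in sham to 14.7 ± 3.53 CPM in Glenn libraries (SD, n = 15 each; log2 change 3.82, adjusted p = 1.04e-14). Fbn2, the fibrillin of development (log2 change 3.03), and Emilin3 (log2 change 2.15) rose from traces, with at most 18 and 5 counts in any sham library. Lower were Adamtsl2, which binds fibrillin-1, with a log2 change of -1.68 (7.94 to 2.5 CPM), Hmcn1, the fibulin-like hemicentin, with -1.58 (132 to 45.2 CPM), and the microfibril protein Mfap2, with -0.92 (28.7 to 17.4 CPM).

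Among 8 tested cross-linking partners 4 were higher and 1 lower (median log2 change 0.14). Fibronectin (Fn1), on which fibrillin and lysyl oxidase assemble, rose from 104 ± 33.4 to 332 ± 144 CPM (log2 change 1.73, SE 0.16, adjusted p = 5.73e-10, edgeR). The other lysyl oxidases diverged: Loxl3 had a log2 change of 0.37 (adjusted p = 0.00684) and Loxl4 of -0.97 (adjusted p = 1.44e-06). Of 12 tested genes of elastin breakdown and its inhibitors 7 were higher and 2 lower (median log2 change 0.80). The gelatinase Mmp2 rose from 66.5 to 187 CPM (log2 change 1.51) and the macrophage elastase Mmp12, with at most 22 counts in any library, had a log2 change of 2.54, which was 1.53 and not called with limma voom (adjusted p = 0.0592). Serpina1, the antitrypsin that inhibits neutrophil elastase, fell from 131 ± 30.7 to 7.41 ± 1.73 CPM (log2 change -4.16, SE 0.14, adjusted p = 2.19e-18, edgeR), without overlap (lowest sham library 93.4 CPM, highest Glenn library 10.03 CPM). The sheddase Adam17 had a log2 change of -0.44.

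Among 9 tested genes of elastin receptors and integrins 1 was higher and 4 lower (median log2 change -0.05). The higher gene was Lgals3, with a log2 change of 0.22 (adjusted p = 0.0350, edgeR), which missed the threshold when any 1 of 13 libraries was left out, and the integrin subunits Itgb5 and Itgb3 had changes of -0.75 and -0.49. With RT1-CE16-low libraries alone the calls of Emilin3, Mfap2, Loxl3, Lgals3 and Itgb3 were lost (adjusted p from 0.0775 to 0.794), and with series A alone those of Loxl3, Mmp12, Lgals3 and Itgb3 (adjusted p from 0.0646 to 0.416). The type 2 alveolar markers, all 7 of which were lower averaged over diets, did not pass on the control diet. There 0 of 7 were called, and their score difference was -0.16 with overlap (adjusted p = 0.556, exact test). Serpina1 did not overlap between operations. The median log2 change of the type 2 markers averaged over diets was -0.43. The part of these markers in the fall of Serpina1 was not tested.

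**Figure D4:**
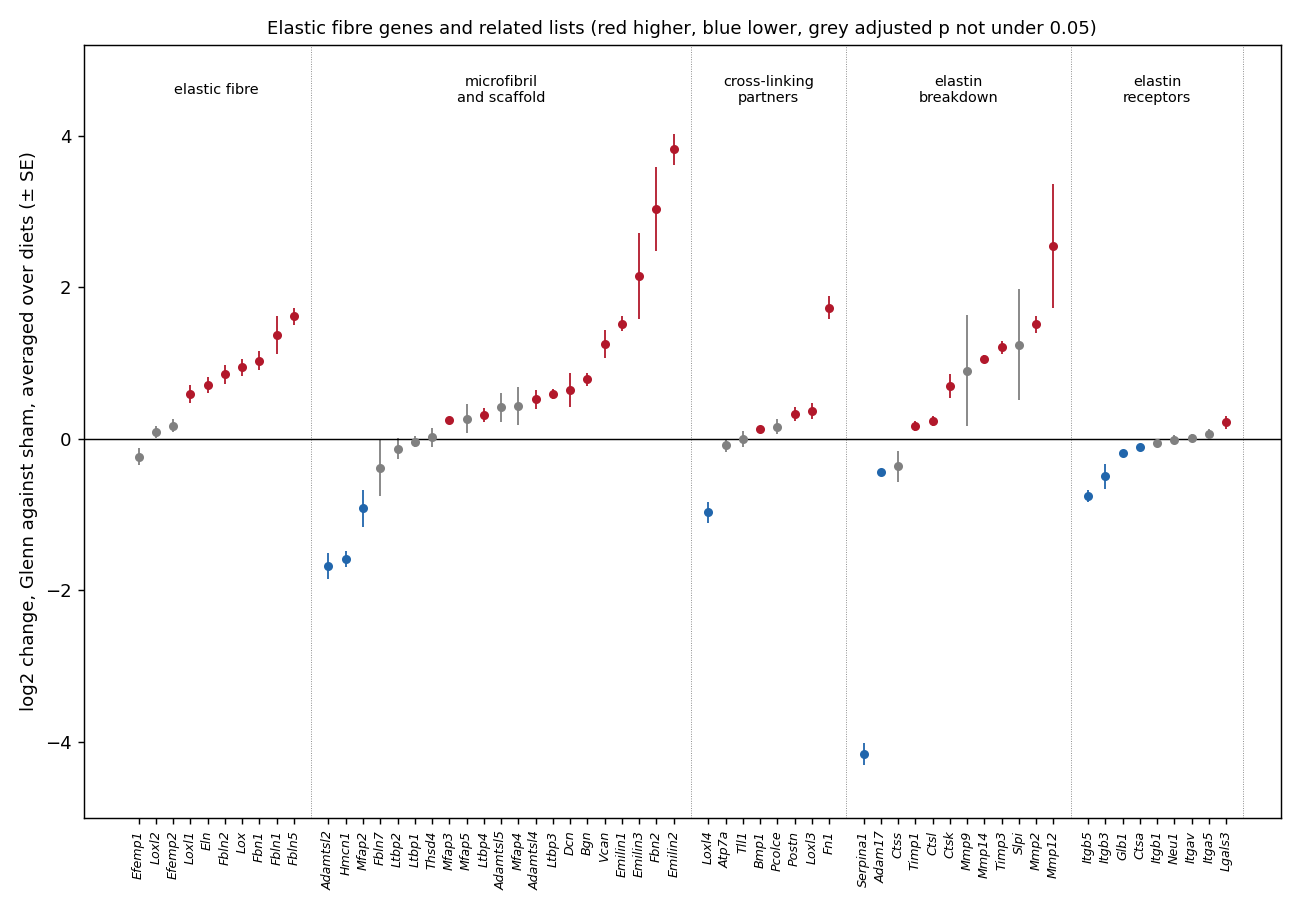
Log2 change with Glenn surgery averaged over diets for the elastic fibre genes and for 4 related lists. The vertical axis is the edgeR log2 change (bars are SE), each point is a gene, red points are higher and blue points lower at an adjusted p under 0.05, and grey points did not pass. In the elastic fibre list 7 points are red and 0 blue, while the microfibril list runs from Emilin2 at 3.82 to Adamtsl2 at -1.68.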

How the data were processed

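Bulk RNA was sequenced from 30 libraries of CD31+ rat lung cells. The deposited table holds the authors' estimated counts per gene, 13.6% of which were not whole and were rounded here. The submitters' processing notes name FastQC, Trim Galore, STAR, Picard and Salmon and the builds mRatBN7.2 and rn7. RNA was amplified with a low-input full-length kit, per the labels' protocols, and strand use in counting is not given in the sources used here.

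Counts were tested with edgeR 4.0.16 (R 4.3.3; quasi-likelihood F-test, TMM factors of 0.938 to 1.06, filterByExpr with a minimum count of 10 and a minimum total of 15) on a model of the 6 groups plus the library series, adjusted by Benjamini-Hochberg over 16171 genes, with 0.05 as the threshold. The SE of a log2 change was taken from its F statistic (size of the change over the root of F). The script was tested on simulated data. Alternatives used DESeq2 1.42.0, limma 3.58.1 (voom), other terms (sex and RT1-CE16 level among them), other filters and fewer libraries. Marker scores used a pseudocount of 1.

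The 10 members, the related lists and the marker lists were chosen with earlier results of these data known. Named were every member, the 3 highest and 3 lowest called genes of the microfibril list, 2 and 2 of each other related list, the 5 genes nearest to Eln and Fbln5, and 1 gene of a marker list. The listed genes Tnxb, Timp2, Higd1b and Krt19 were not analysed here. Counts of any pair of libraries in a group differed by more than sampling noise (chi-square per degree of freedom of at least 21.2), so none was counted as a repeat.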

Additional observations from a re-analysis of the deposited data

Results flagged for a closer look

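In 5 of 90 sets of 5 libraries (10 members, total counts and marker scores in the 6 groups), 1 library stood apart from the other 4 by more than the 95% critical value of Dixon's gap ratio, 0.71 for 5 libraries. Chance gives about 4.5 such sets of 90.

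Eln was lowest in sham control replicate 2, at 762 CPM against 1022 to 1095 CPM in the other 4 (gap ratio 0.781). Fbn1 was lowest in sham excess replicate 1, at 23.7 CPM against 36.9 to 41.9 CPM (gap ratio 0.726). Fbln2 was highest in sham excess replicate 2, at 112 CPM against 84.0 to 91.6 CPM (gap ratio 0.727). Loxl2 was highest in Glenn control replicate 1, at 33.0 CPM against 18.6 to 22.3 CPM (gap ratio 0.744). The total count was highest in Glenn control replicate 2, at 77.6 M against 38.2 M to 42.0 M (gap ratio 0.904).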

How the results depend on the processing

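Averaged over diets 7 or 8 members were called under every alternative and with each library left out, and on the deficient diet 7 throughout. On the excess diet the count ran from 5 to 8 and on the control diet it was 1 with RT1-CE16-low libraries alone, an alternative chosen after seeing the data, 2 with limma voom or only the groups compared, and 1 to 3 with a library left out. Of diet comparisons after Glenn surgery, deficient against control gave 0 to 1 with a library left out, and excess against control 0 to 2, and 1 (Loxl2) with limma voom. The signs that turned belonged to changes that passed no test. With RT1-CE16-low libraries alone the control diet log2 change was -0.15 for Fbln1 and -0.14 for Loxl1. Efemp1 on the excess diet was 0.10 without the series term, 0.080 with series A alone, 0.075 with only the groups compared, 0.14 with a replicate block and 0.080 with RT1-CE16-low libraries. Loxl2 on the control diet was -0.065 with an RT1-CE16 term, -0.082 with limma voom, -0.0088 with a replicate block, and from -0.17 to 0.086 with a library left out. Loxl2 on the excess diet was -0.090 without the series term, -0.017 with series A alone, -0.020 with only the groups compared and -0.017 with RT1-CE16-low libraries. With series A alone the mesothelial score difference was -0.396 on the excess diet and the leukocyte difference 0.0966 on the deficient diet. With a library left out, the control diet differences ran from -0.189 to 0.132 for the mesothelial and from -0.241 to 0.0793 for the leukocyte score. The causes were not tested. The sources used here do not say whether replicate numbers pair libraries, and they were not treated as pairs: over 75 same-numbered pairs the correlation of deviations from group means had a median of 0.104 (-0.246 to 0.292, 38 above 0.1), against a median of -0.024 between other numbers, and 15 of 30 libraries correlated best with their own number, a hint from the data and not from the design. Same-numbered libraries also shared other traits. By the Y-linked gene Ddx3y every replicate 1 was male and every replicate 2 female. All libraries numbered 1 or 2 were RT1-CE16-low and of series A, and series B held only replicates 3 to 5. The part of these traits in the correlation was not tested. The replicate block left 7 members called averaged over diets and changed no member count by over 1.5 times.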
